A study of Mus musculus with 3 samples.

Results

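The 7 genes described here, Gabra2, Gabra3, Gabra4, Gabrb1, Gabrb2, Gabrg1 and Gabrg3, encode alpha, beta and gamma subunits of the GABA-A receptor. They were chosen by gene symbol, and each was found once among the 30559 genes of the deposited tables. The values are unique molecular identifiers (UMIs) counted in single nuclei of mouse neurospheres, free-floating colonies grown from stem cells of the subventricular zone, after differentiation to day 15 in vitro. The labels give the genotypes as control, CBPf/f and p300f/f, and name tamoxifen as the treatment of all 3 samples. The methods of the study describe instead stem cells of floxed newborn pups on a C57BL/6 background, infected with a lentivirus for red fluorescent protein as the control, or for Cre and mCherry to remove CBP or p300. The floxed line behind the control is not given in the sources used here. Each condition was 1 pool of about 15 cultures and 1 library, so no test between conditions was possible. Every interval in the text covers only counting error or, for shares of nuclei, the sampling of nuclei within 1 library. Where 3 values stand together, they are for the control, the CBP-ablated and the p300-ablated library, in this order.

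GABA-A receptors are chloride channels built from a ring of subunits, and most contain alpha, beta and gamma subunits. GABA binds between alpha and beta subunits, and benzodiazepines bind between alpha and gamma subunits. In the mature brain these receptors carry fast inhibition, while neural stem cells and oligodendrocyte precursors can respond to GABA through them. Astrocytes can also carry functional receptors.

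Of the 7 genes, 4 lie on chromosome 5 within 1398 kb, in the order Gabrg1 (chr5:70751047-70842617), Gabra2 (chr5:70957597-71095849), Gabra4 (chr5:71569749-71658308) and Gabrb1 (chr5:71658113-72149037), as placed by GENCODE M21 on GRCm38. Gabra4 is on the minus and Gabrb1 on the plus strand, and these genes meet head to head with an overlap of 196 bases. Gabrb2 is at chr11:42419757-42629028, Gabrg3 at chr7:56716465-57387188 and Gabra3 at chrX:72432681-72656848. The genes span between 88.6 kb (Gabra4) and 671 kb (Gabrg3), and exons make up 1.75% to 8.59% of each span. Reads in introns were counted together with those in exons, so a level belongs to the whole span. No other gene of the tables overlaps a member on the same strand.

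Upstream sequences were read from the RefSeq promoter table on GRCm38.p6, in which all 7 genes had an entry. The 4 windows printed here are the 250 bases before the RefSeq start, 5' to 3' on the strand of the gene. Gabra2 and Gabrg1 are shown because they are neighbours on chromosome 5 with unlike base composition, Gabrg3 because its level stood apart in CBP-ablated precursors, and Gabra3 because it is the X-linked member. Capitals mark CG dinucleotides and the motif TATAAA on either strand.
Gabra2, chr5:71095850-71096099, minus strand: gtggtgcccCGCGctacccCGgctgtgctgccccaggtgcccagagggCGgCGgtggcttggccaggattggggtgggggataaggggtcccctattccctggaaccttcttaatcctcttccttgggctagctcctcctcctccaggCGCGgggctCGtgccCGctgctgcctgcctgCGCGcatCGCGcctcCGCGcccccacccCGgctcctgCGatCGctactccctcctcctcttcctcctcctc
Gabrg1, chr5:70842618-70842867, minus strand: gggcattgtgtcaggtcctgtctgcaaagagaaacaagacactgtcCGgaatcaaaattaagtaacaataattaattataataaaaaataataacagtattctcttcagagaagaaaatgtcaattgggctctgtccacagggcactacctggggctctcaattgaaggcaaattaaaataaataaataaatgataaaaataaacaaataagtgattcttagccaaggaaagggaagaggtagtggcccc
Gabrg3, chr7:57387216-57387465, minus strand: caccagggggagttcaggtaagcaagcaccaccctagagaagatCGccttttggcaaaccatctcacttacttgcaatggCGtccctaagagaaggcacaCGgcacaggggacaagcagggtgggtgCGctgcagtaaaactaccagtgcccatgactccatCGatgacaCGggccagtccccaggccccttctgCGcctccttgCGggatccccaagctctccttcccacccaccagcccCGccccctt
Gabra3, chrX:72656920-72657169, minus strand: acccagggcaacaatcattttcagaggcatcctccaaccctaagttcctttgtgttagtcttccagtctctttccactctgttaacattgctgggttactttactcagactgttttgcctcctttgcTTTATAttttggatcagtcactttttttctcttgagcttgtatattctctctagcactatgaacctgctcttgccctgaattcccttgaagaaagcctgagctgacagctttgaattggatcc
The Gabra2 window held 18 CG dinucleotides and was 70% G and C, more than 90.8% of the 32817 windows of the table. The Gabrg1 window held 1 CG dinucleotide at 35.6% G and C, the Gabrg3 window 9 at 60.4%, and the Gabra3 window 0 at 42.4%. The median window held 6 CG dinucleotides at 52.4% G and C. Both Gabra3 windows and 1 of the 3 Gabrb2 windows held TATAAA, a motif found in 12.4% of all windows. The Gabra3 windows overlap and hold the same single site. The cyclic AMP response element TGACGTCA, to which the CBP partner CREB binds, was in none of the 11 windows of the members and in 1.55% of all windows. Its core TGACG, which lies within the full element, was also in none of the 11, against 17.7% of all windows. Both strands were searched, and no match says only that these letters are not in these windows.

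The libraries held 4884, 3017 and 4648 nuclei, with 12748336 to 18876682 UMIs per library and medians of 3219 to 4016 UMIs per nucleus. Pairs of libraries shared 1 to 7 cell barcodes, and no barcode was in all 3. Levels are given as counts per 1000000 UMIs of a library or class of nuclei (CPM). Crebbp, the gene of CBP, stood at 335, 369.5 and 365 CPM and Ep300, the gene of p300, at 114, 136 and 115 CPM, and such sums over whole genes do not check the loss of 1 exon. Clustering gave 13 clusters, of which 10 could be named by markers, with "-like" added because the names are rebuilt here. The study's short names were kept, RGC/PSC for radial glial or pluripotent stem cells and NPC/OPC for neural or oligodendrocyte progenitors, and cluster-5-like nuclei carry the markers of a cluster that the study called immature neurons. Astrocyte-like nuclei were 1279 in the control library and 0 in both others. Summed astrocyte markers were at 9199, 2050.0 and 3647 CPM, with none of the 7 markers at 0, so whole libraries are compared with and without these nuclei. Cluster 12, of 184 nuclei, was made up mostly of called doublets and is not described.

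Gabrb1 was the most abundant member, also per length of gene. In the control it stood at 204 CPM per 100 kb of span, against 77.3 for Gabrg1, 35.7 for Gabra2, 21.4 for Gabra4, 19.2 for Gabrb2, 16.6 for Gabra3 and 9.05 for Gabrg3. All later levels are plain CPM, which compare nuclei for 1 gene but not 1 gene with another.

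**Figure D1:**
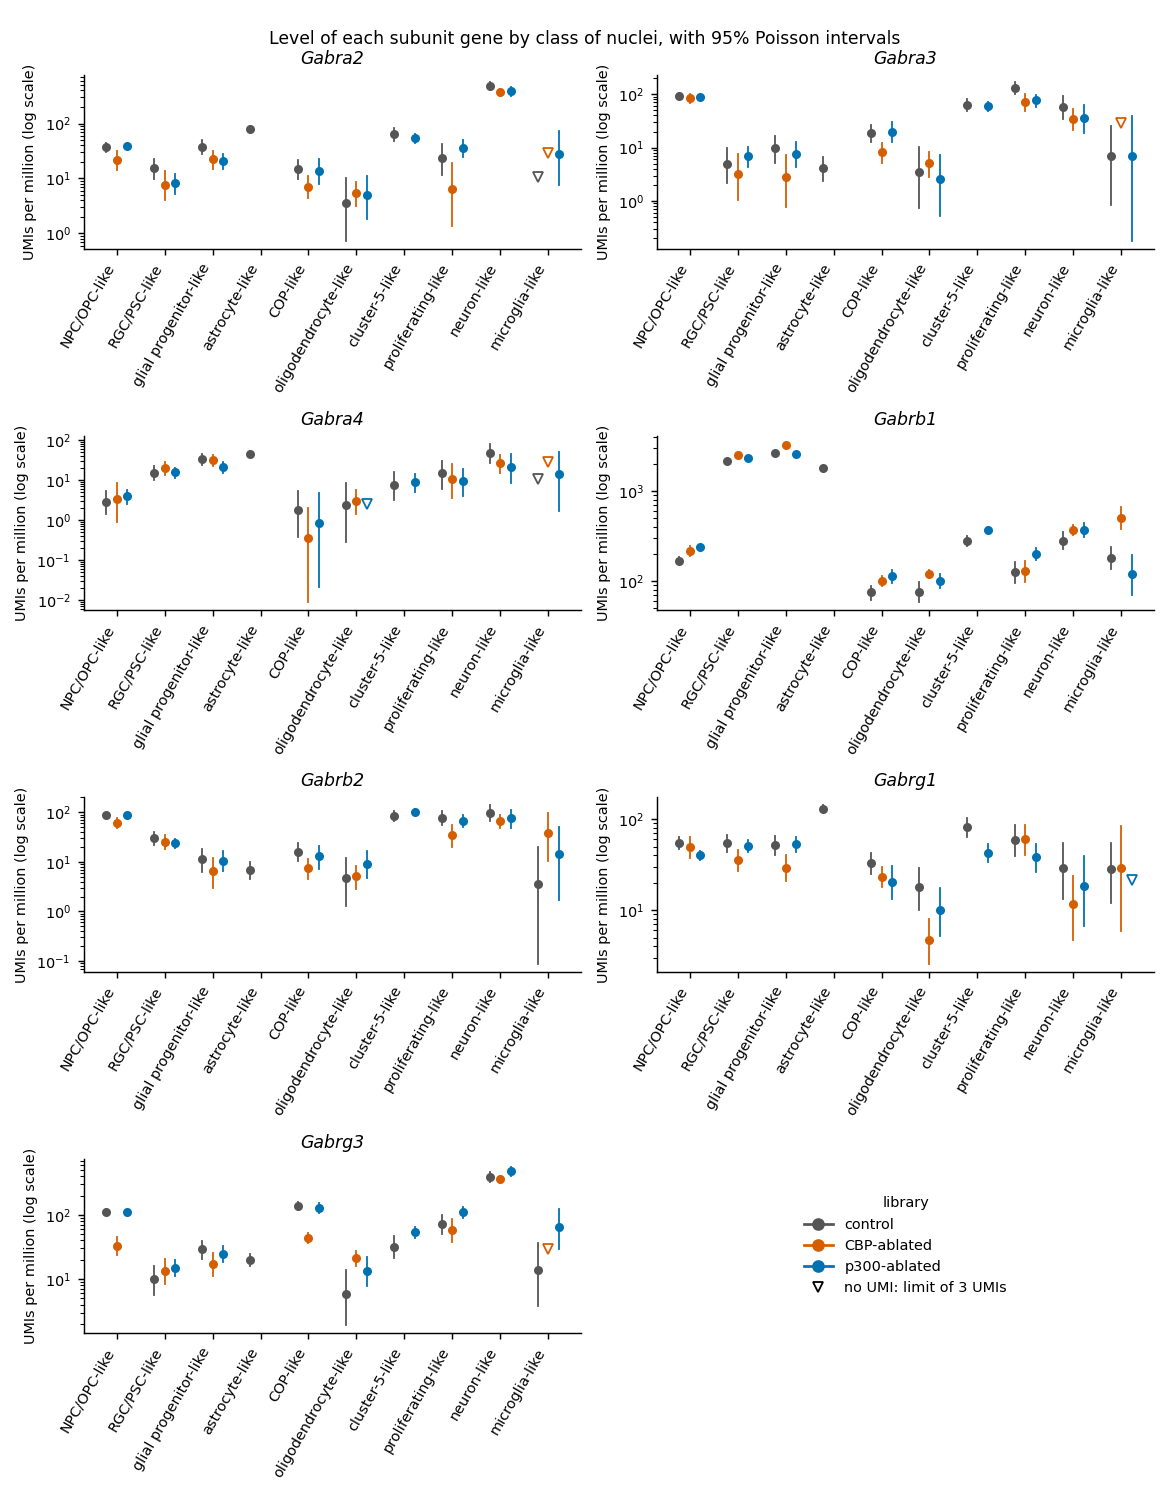
CPM of each subunit gene (y axis, log scale) in the 10 named classes of nuclei (x axis; COP-like stands for committed oligodendrocyte precursor-like) in the control, CBP-ablated and p300-ablated libraries; points are sums over a class, bars are 95% exact Poisson intervals, open triangles give the limit of 3 UMIs where no UMI was counted, and classes under 50 nuclei are left out. Gabra2 and Gabrg3 are highest in neuron-like nuclei, Gabra3 and Gabrb2 are high in NPC/OPC-like and low in astrocyte-like nuclei, and Gabrb1 is highest in glial progenitor-like, RGC/PSC-like and astrocyte-like nuclei.

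The 3 alpha subunit genes were high in different nuclei. Gabra2, whose product is found at many forebrain synapses, stood in neuron-like nuclei at 477 (403 to 560.4), 368 (321 to 419) and 384 (320.2 to 458) CPM. Astrocyte-like nuclei followed with 79.5 (70.9 to 88.8), and NPC/OPC-like nuclei held 37.0, 21.6 and 38.4. The neuron-like level was above that of every other class in each library, with no overlap of intervals. Neuron-like nuclei gave 18.2%, 61.5% and 19.0% of all Gabra2 UMIs, while they were 2.07%, 5.67% and 1.87% of the nuclei. The CBP-ablated library, with the highest share of neuron-like nuclei, thus had the highest part of its own Gabra2 UMIs in them.

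Gabra3, an alpha subunit known from early brain development, was high in dividing and precursor nuclei. NPC/OPC-like nuclei held 92.9 (82.9 to 104), 83.8 (68.3 to 102) and 89.0 (82.1 to 96.3) CPM, and these intervals overlapped. Proliferating-like nuclei held 129, 71.3 and 76.3. Over the 3 libraries together the classes stood at 89.6 (84.2 to 95.2) and 89.1 (75.7 to 104), and could not be ordered. Astrocyte-like nuclei held 4.08 and oligodendrocyte-like nuclei 3.55, 5.08 and 2.53.

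As the X-linked member, Gabra3 is read beside Xist, the RNA of the inactive X, which stood at 1079, 1694 and 1012 CPM. The Y-linked Uty was at 96.9, 62.8 and 93.8 and Ddx3y at 31.2, 21.2 and 30.04. The Y-linked Eif2s3y was at 46.0, 38.6 and 54.2 and Kdm5d at 23.7, 21.3 and 28.6. The CBP-ablated library thus had the most Xist and the lowest value of each of these Y-linked genes. For Kdm5d the CBP-ablated log2 ratio was -0.16 (-0.39 to 0.07). Uty and Ddx3y were highest in the control, Eif2s3y and Kdm5d in the p300-ablated library. In NPC/OPC-like nuclei Xist was at 1198, 1329 and 1053. The part of this in the Gabra3 values was not tested.

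Gabra4, known from receptors outside synapses, was the rarest member, with 309, 114 and 174 UMIs in all. Of the control UMIs, 175 came from astrocyte-like nuclei, at 44.6 (38.2 to 51.7) CPM. Glial progenitor-like nuclei held 32.8, 30.9 and 21.3 and RGC/PSC-like nuclei 15.4, 19.9 and 15.6. The oligodendrocyte lineage held little of it: committed oligodendrocyte precursor-like nuclei gave 3, 1 and 1 UMIs and NPC/OPC-like nuclei 10, 4 and 27. Neuron-like nuclei gave 15, 16 and 7 UMIs, so their place beside the astrocyte-like nuclei could not be settled at this depth.

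The 2 beta subunit genes were high in different nuclei. Gabrb1 stood at 2649.8 (2563 to 2738), 3238 (3144 to 3334) and 2542 (2472 to 2614) CPM in glial progenitor-like nuclei. RGC/PSC-like nuclei held 2147, 2525 and 2328, below the glial progenitor-like level in each library with no overlap of intervals, and astrocyte-like nuclei held 1777 (1736 to 1819). All of these were more than 10-fold above the 74.8, 100.2 and 113 of committed oligodendrocyte precursor-like nuclei.

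Gabrb2, the beta subunit of most receptors in the adult brain, was high in other nuclei. NPC/OPC-like nuclei held 88.5, 62.2 and 86.4 CPM, cluster-5-like nuclei 83.9, 63.2 and 102, neuron-like nuclei 97.3, 66.3 and 76.3 and astrocyte-like nuclei 6.88 (4.53 to 10.0). Its levels in NPC/OPC-like and neuron-like nuclei did not differ beyond their intervals in any library. The cluster-5-like value of the CBP-ablated library rests on 20 nuclei.

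Of the gamma subunit genes, Gabrg1, known for its expression in glia, was highest in astrocyte-like nuclei at 130.5 (119 to 142) CPM, with 512 of the 1155 control UMIs. NPC/OPC-like nuclei held 55.01, 49.0 and 40.2, RGC/PSC-like nuclei 54.3, 35.4 and 51.1 and glial progenitor-like nuclei 52.2, 29.4 and 53.2. In the control these 3 classes could not be told apart. Neuron-like nuclei gave only 9, 7 and 6 UMIs.

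Gabrg3, a gamma subunit of low abundance in brain, was instead highest in neuron-like nuclei, at 389 (323 to 465), 356 (310.1 to 407) and 482 (409.8 to 563) CPM. Over the 3 libraries together the next classes stood at 102 (95.9 to 108) (NPC/OPC-like), 88.8 (81.2 to 96.9) (committed oligodendrocyte precursor-like) and 86.3 (73.2 to 101) (proliferating-like), and could not all be ordered. By library, NPC/OPC-like nuclei held 110.0, 33.2 and 109, committed oligodendrocyte precursor-like nuclei 138, 43.2 and 128 and proliferating-like nuclei 72.04, 58.3 and 109.7. The CBP-ablated value was the lowest of the 3 in each of these classes. Astrocyte-like nuclei held 19.9.

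Microglia-like nuclei, a lineage from outside the neural tube that should lack these genes, were taken as the background, though a nucleus with many UMIs of a neural gene among them need not be free RNA. They held 0 to 9 UMIs of each member other than Gabrb1 per library, at medians of 1134, 1010 and 1664 UMIs per nucleus. Gabrb1 gave 52, 52 and 17 UMIs there, or 182, 502 and 121 CPM. In the CBP-ablated library 26 of the 52 lay in 1 nucleus, without which the level was 266. Its levels in committed oligodendrocyte precursor-like and oligodendrocyte-like nuclei, 75.8, 119 and 100.3 in the latter, were at or below these, also without that nucleus. So was the 169 of control NPC/OPC-like nuclei. Oligodendrocyte-like nuclei were deeper, at medians of 5258, 5939 and 6128 UMIs, as were control NPC/OPC-like nuclei at 3271.5. CPM at such unlike depths cannot settle whether these levels are background. Subtracting 5% of the library profile from each class moved 29 of 196 class levels of the members beyond their interval, and 10% moved 59.

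Over whole libraries, all 7 members were lower in the CBP-ablated library than in the control. Gabrg1 stood at 70.8, 27.3 and 40.4 CPM, Gabra4 at 18.9, 8.94 and 9.22, Gabra2 at 49.4, 28.3 and 35.2 and Gabrb1 at 1000.5, 811 and 886. These 4 were highest in the control, and the share of all genes highest there was not computed. Outside astrocyte-like nuclei Gabrb1 was lowest in the control, at 754, 811 and 886, while Gabrg1, Gabra4 and Gabra2 were still highest there. Gabra3 stood at 37.2, 19.9 and 48.1, Gabrb2 at 40.1, 21.6 and 56.2 and Gabrg3 at 60.7, 42.4 and 75.0, so that these 3 were lowest in the CBP-ablated and highest in the p300-ablated library.

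As log2 ratios against the control, Gabrg1 was at -1.38 (-1.55 to -1.201) and Gabra4 at -1.08 (-1.41 to -0.77) in the CBP-ablated library. These 2 of 7 members were lower by 1 log2 unit or more, against 3.99% of the 11883 genes with 100 UMIs or more in both libraries together, and 0 were higher, against 2.89%. The other members lay between -0.90 for Gabra3 and -0.30 for Gabrb1. The median of the members was -0.89 and that of all genes 0.06. For p300 only Gabra4 passed 1, at -1.04 (-1.32 to -0.77), against 2.12% of genes lower and 0.694% higher, and Gabrg1 was at -0.81 (-0.94 to -0.68). The median of the members was -0.18 there, beside -0.03 for all genes. Both comparisons share the control library. In such sums, fewer nuclei of a class and fewer UMIs per nucleus cannot be told apart.

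**Figure D2:**
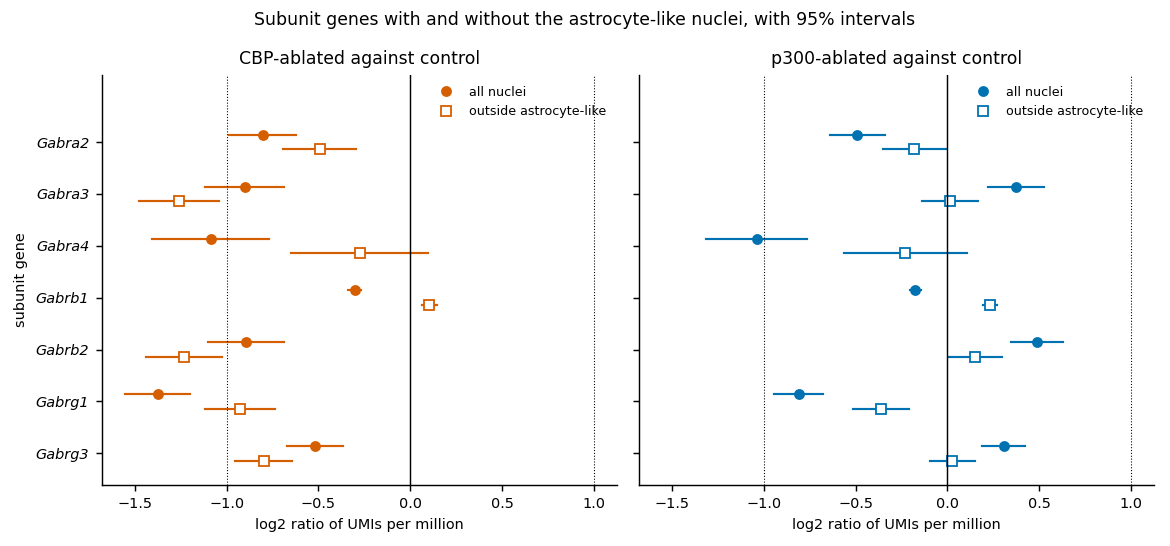
Log2 ratio of CPM against the control (x axis) of each subunit gene (y axis) in the CBP-ablated (left) and p300-ablated (right) library, for all nuclei and outside astrocyte-like nuclei, with 95% exact conditional binomial intervals as bars. Outside astrocyte-like nuclei Gabra4 is at -0.27 and -0.23 where it was at -1.08 and -1.04, while Gabra3 and Gabrb2 pass -1 in the CBP-ablated library.

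Leaving out the astrocyte-like nuclei of the control altered which members stood apart. For CBP, Gabra4 was then at -0.27 (-0.65 to 0.10) and Gabrg1 at -0.93 (-1.12 to -0.74), so that neither passed 1. Gabra3, at -1.26 (-1.48 to -1.04), and Gabrb2, at -1.23 (-1.44 to -1.02), now did, which again made 2 of 7 members, against 2.13% of genes. Gabrb1 was at 0.10 (0.06 to 0.15), above 0 where it had been below. For p300, 0 of 7 members were then lower by 1, against 0.943% of genes. The members lay between -0.36 for Gabrg1 and 0.23 for Gabrb1, with a median of 0.01.

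The shares of the other classes moved with these sums. NPC/OPC-like nuclei, the main source of Gabra3 and Gabrb2, were 21.1%, 11.2% and 38.2% of the nuclei. With each class held at its share in the control, over the 12 clusters that all 3 libraries held, the CBP-ablated ratios of Gabra3 and Gabrb2 were -0.54 and -0.58, and the p300-ablated ratios -0.18 and -0.04. Gabrg3 went the other way: its CBP-ablated ratio was -0.52 over whole libraries and -1.08 at equal shares. Ratios at equal shares have no interval, and the share of all genes past 1 was not computed for them. They weight 20 CBP-ablated cluster-5-like nuclei, with 2 Gabrg3 UMIs, as the larger control class, and include cluster 12.

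Within classes, Gabrg3 in NPC/OPC-like nuclei gave the CBP-ablated ratio furthest below 0 among those on 100 UMIs or more. These nuclei held 378, 40 and 756 Gabrg3 UMIs, from 1030, 339 and 1775 nuclei. The log2 ratio was -1.73 (-2.24 to -1.26) for CBP and -0.01 (-0.19 to 0.17) for p300. After each nucleus was thinned to 1500 UMIs, 11.0% (9.12% to 13.0%), 5.34% (3.20% to 8.31%) and 10.1% (8.75% to 11.6%) of NPC/OPC-like nuclei held a Gabrg3 UMI, and the CBP-ablated interval lay below both others. These intervals take the nuclei of 1 library as independent and do not cover differences between cultures. Gabrg3 was 1 of 6 members with 20 UMIs or more there to pass 1, against 3.33% of genes in this class. For p300 it was 0 of 7, against 2.01%. At a finer resolution of 1.2, the NPC/OPC-like nuclei formed 2 clusters with CBP-ablated ratios of -1.51 (-2.16 to -0.91) and -1.01 (-1.95 to -0.21), the latter over 45 CBP-ablated nuclei.

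Committed oligodendrocyte precursor-like nuclei, the next stage of the lineage, held more members below the threshold. Gabrg3 was at -1.68 (-2.01 to -1.36) for CBP, from 231 UMIs in 395 control nuclei and 122 in 609 CBP-ablated nuclei. Gabra3 was at -1.19 (-2.03 to -0.36), Gabrb2 at -1.12 (-2.02 to -0.24) and Gabra2 at -1.08 (-2.01 to -0.17), on 54, 48 and 45 UMIs of both libraries together. These made 4 of 6 members, against 3.33% of genes. In the control and the CBP-ablated library, Gabra3 stood at 18.6 and 8.14 CPM, Gabrb2 at 16.2 and 7.43 and Gabra2 at 15.0 and 7.08. These levels lay below the highest value or limit of the shallower microglia-like nuclei in any library. For Gabra3 and Gabra2 this was a limit of 28.9 CPM at 0 UMIs, and for Gabrb2 a value of 38.6, all in the CBP-ablated library. In the control, microglia-like nuclei were below the precursor levels, at 7.02 for Gabra3, 3.51 for Gabrb2 and 0 for Gabra2, where 0 allows up to 10.5. Whether the precursor levels are background was not settled. One control nucleus held 37 of the Gabrg3 UMIs, and without it the ratio was -1.43 (-1.77 to -1.10). Without the nucleus with the most UMIs of the gene, Gabra2 was at -0.90 (-1.85 to 0.04) and did not pass, while Gabra3 and Gabrb2 did. Gabrb1 was at 0.42 and Gabrg1 at -0.50. For p300 0 of 6 members passed, against 3.15%, and Gabrg3 was at -0.11 (-0.41 to 0.20). With nuclei classed by marker score in place of clusters, Gabra3 was at -0.84 and did not pass.

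In oligodendrocyte-like nuclei the CBP-ablated Gabrg3 ratio was above 0, on low levels. They held 5, 62 and 16 UMIs, in 160, 487 and 193 nuclei, which is 5.92 (1.92 to 13.8), 21.0 (16.1 to 26.9) and 13.5 (7.71 to 21.9) CPM. The log2 ratio for CBP was 1.82 (0.52 to 3.50), but 1 CBP-ablated nucleus held 30 of the 62 UMIs, and without it the ratio was 0.87 (-0.50 to 2.59) and did not pass 1. With it, 1 of 3 members was higher by 1 or more, against 6.39% of genes. Gabrg1 was at -1.91 (-3.07 to -0.76) on 29 UMIs, as 1 of 3 members lower, against 2.58%. For p300, Gabrg3 was at 1.19 (-0.33 to 2.99), as 1 of 3 members higher, against 4.09%. Microglia-like nuclei held 4, 0 and 9 Gabrg3 UMIs, or 14.0, 0 and 63.9 CPM, where a count of 0 allows up to 28.9. They held 8, 3 and 0 Gabrg1 UMIs, or 28.1, 28.9 and 0 CPM, where 0 allows up to 21.3. The oligodendrocyte-like levels of both genes, 17.8, 4.74 and 10.1 for Gabrg1, lay within the range of these values and limits. Since microglia-like nuclei were shallower, this does not settle whether the levels are background. Oligodendrocyte-like nuclei were 3.28%, 16.1% and 4.15% of the nuclei.

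**Figure D3:**
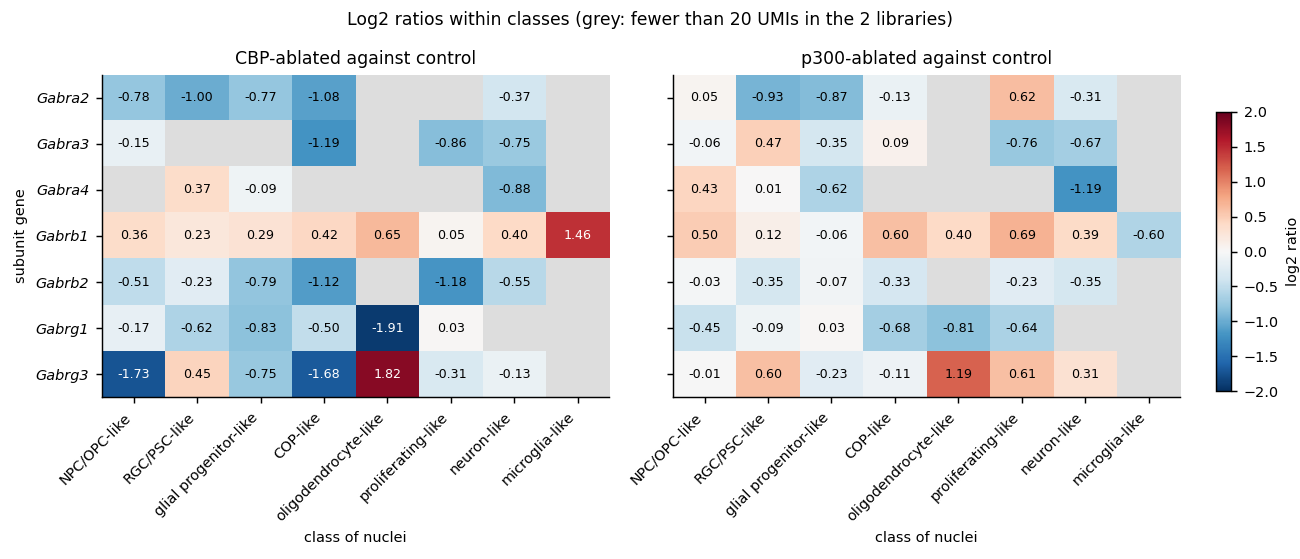
Log2 ratio of CPM against the control of each subunit gene (y axis) within 8 classes of nuclei (x axis; COP-like stands for committed oligodendrocyte precursor-like) in the CBP-ablated (left) and p300-ablated (right) library; colour gives the ratio, with blue lower and red higher than the control, and grey marks fewer than 20 UMIs. Gabrg3 is at -1.73 and -1.68 in CBP-ablated precursors and at 1.82 in oligodendrocyte-like nuclei (0.87 without 1 nucleus). Gabrb1 is above 0 in each CBP-ablated class shown, though at 0.05 (-0.49 to 0.60) in proliferating-like nuclei. Cluster-5-like nuclei are not shown, and held Gabrb1 at -0.39 (-1.19 to 0.32) for CBP, over 20 CBP-ablated nuclei.

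RGC/PSC-like and glial progenitor-like nuclei held no member past 1 with all nuclei in. In RGC/PSC-like nuclei it was 0 of 6 for CBP, against 2.77% of genes, and 0 of 7 for p300, against 1.65%. Gabra2 was near the threshold there, at -0.998 (-2.13 to 0.05) and -0.93 (-1.78 to -0.08), and the latter was -1.17 without 1 nucleus. In glial progenitor-like nuclei it was 0 of 6, against 2.56%, and 0 of 7, against 1.76%. Gabra2 was at -0.77 for CBP and -0.87 for p300, both with intervals below 0, and at -1.14 for CBP without the 1 nucleus that held 7 of its UMIs. Gabrg1 was at -0.83 (-1.42 to -0.25) and 0.03 (-0.42 to 0.49). The Gabra2 point values of both classes were below 0 in both ablated libraries, on 12 to 51 UMIs per class and library.

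In proliferating-like nuclei Gabrb2 passed 1 for CBP, at -1.18 (-2.13 to -0.30) on 53 UMIs, as 1 of 5 members, against 3.16% of genes, and 0 of 6 did for p300, against 2.47%. Classed by marker score, its ratio was -0.92, and without 1 nucleus -0.99. In neuron-like nuclei 0 of 6 members passed for CBP with all nuclei in, against 3.34%. Gabra4 was at -0.88 (-1.99 to 0.24) for CBP, and at -1.28 (-2.51 to -0.09) without 1 nucleus. Gabra3 was at -0.75 (-1.73 to 0.25) for CBP, and at -1.04 (-2.09 to 0.00) without 1 nucleus. For p300 1 of 6 members passed, Gabra4 at -1.19 (-2.72 to 0.19) on 22 UMIs, against 5.01%. This p300-ablated ratio was -0.86 by marker score and -0.88 without 1 nucleus. The abundant members of neuron-like nuclei differed less, with Gabra2 at -0.37 (-0.68 to -0.06) and Gabrg3 at -0.13 (-0.46 to 0.21) for CBP.

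Cluster 7, an unnamed cluster with Gpr149 and Syt1 among its leading genes, held Gabra3 at -1.26 (-1.87 to -0.67), Gabrb2 at -1.21 (-1.81 to -0.61) and Gabrg3 at -1.01 (-1.97 to -0.06) for CBP. These made 3 of 6 members, against 3.55% of genes, and without the nucleus with the most UMIs Gabrg3 was at -0.80 (-1.79 to 0.20). For p300, Gabrg3 was at -2.76 (-8.13 to -0.12), on 21 control UMIs and 1 p300-ablated UMI, as 1 of 5 members lower, against 7.48%. Its Gabra3 levels were 96.0, 40.0 and 54.2 CPM and its Gabrb2 levels 94.3, 40.9 and 59.7, so that the control was highest for both. In cluster-5-like nuclei Gabra3 was at -2.32 (-7.65 to 0.22) for CBP, on 57 UMIs in 244 control nuclei and 1 UMI in 20 CBP-ablated nuclei, and at -0.79 with classes by marker score. It was 1 of 6 members lower, against 15.5% of genes. For p300 it was 0 of 7, against 2.11%, with Gabrg1 at -0.93 (-1.40 to -0.45) and Gabrg3 at 0.74 (0.13 to 1.39).

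Gabrb1 differed by less, on many more UMIs. Its ratio for CBP was 0.29 (0.23 to 0.35) in glial progenitor-like and 0.23 (0.17 to 0.30) in RGC/PSC-like nuclei. For p300 it was -0.06 (-0.12 to 0.00) and 0.12 (0.06 to 0.18) in the same classes. In NPC/OPC-like nuclei it was 0.36 (0.14 to 0.57) and 0.50 (0.36 to 0.64), where the control level is no higher than in microglia-like nuclei. In CBP-ablated microglia-like nuclei the ratio was 1.46 (0.88 to 2.04) on 104 UMIs, and 0.54 (-0.19 to 1.25) without the nucleus that held 26 of them. Unnamed cluster 8 held Gabrb1 at 1145, 891 and 1469.8 CPM, with ratios of -0.36 (-0.62 to -0.11) for CBP and 0.36 (0.19 to 0.53) for p300, so the CBP-ablated sign was not the same in every cluster. Gabra2 was at -1.54 (-3.92 to 0.19) there on 26 UMIs and Gabrg1 at -2.18 (-5.31 to -0.17) on 26 UMIs, which made 2 of 3 members lower for CBP, against 7.55% of genes. For p300 it was 0 of 5, against 5.04%.

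After thinning, Gabrb1 was detected in 48.6%, 37.3% and 43.9% of all nuclei, Gabrg1 in 9.71%, 3.42% and 5.54% and Gabra4 in 2.85%, 1.37% and 1.197%. Gabra2 was in 5.82%, 4.14% and 4.50%, Gabra3 in 4.81%, 2.94% and 6.91%, Gabrb2 in 4.66%, 3.52% and 7.40% and Gabrg3 in 6.02%, 4.48% and 7.36%. The CBP-ablated share was below that of the control for each member, and this comparison was not made over all genes. A receptor with alpha, beta and gamma subunits needs all 3 kinds in 1 cell, and 59 of 4636, 14 of 2922 and 40 of 4513 nuclei held a UMI of each kind among the members, or 1.27% (0.970% to 1.64%), 0.479% (0.262% to 0.803%) and 0.886% (0.634% to 1.205%). In neuron-like nuclei the shares were 11.0% (5.397% to 19.3%), 5.33% (2.46% to 9.87%) and 3.61% (0.752% to 10.2%), and their intervals overlapped. Astrocyte-like nuclei gave 1.97% (1.28% to 2.89%). In microglia-like nuclei it was 0 of 64, 0 of 22 and 0 of 30, which allows shares of up to 4.69%, 13.6% and 10.0%. Without thinning the shares over all nuclei were 4.57%, 2.45% and 5.21%, so the order of the control and the p300-ablated library depended on depth. These are shares of nuclei with detected UMIs, not of cells with a receptor.

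The kinds of subunit were unevenly detected in glial progenitor-like nuclei. After thinning, 89.0%, 91.3% and 85.8% of them held a beta subunit UMI, 10.3%, 6.67% and 7.17% an alpha and 10.5%, 5.13% and 9.86% a gamma subunit UMI. Before thinning, the control nuclei of this class held 3556 UMIs of Gabrb1, which spans 491 kb, and 15 of Gabrb2. Since introns were counted and only the members were used, these shares do not compare the amounts of the kinds. NPC/OPC-like nuclei were more even, with an alpha subunit in 16.2%, 15.4% and 16.5%, a beta subunit in 26.6%, 33.2% and 34.8% and a gamma subunit in 17.9% (15.6% to 20.4%), 9.50% (6.59% to 13.1%) and 15.4% (13.7% to 17.2%). The gamma share of CBP-ablated NPC/OPC-like nuclei had an interval apart from both others, but such intervals do not cover differences between cultures. In microglia-like nuclei, of lower depth before thinning, a beta subunit UMI was in 14.1%, 18.2% and 20% and any member in 18.8%, 18.2% and 26.7%.

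**Figure D4:**
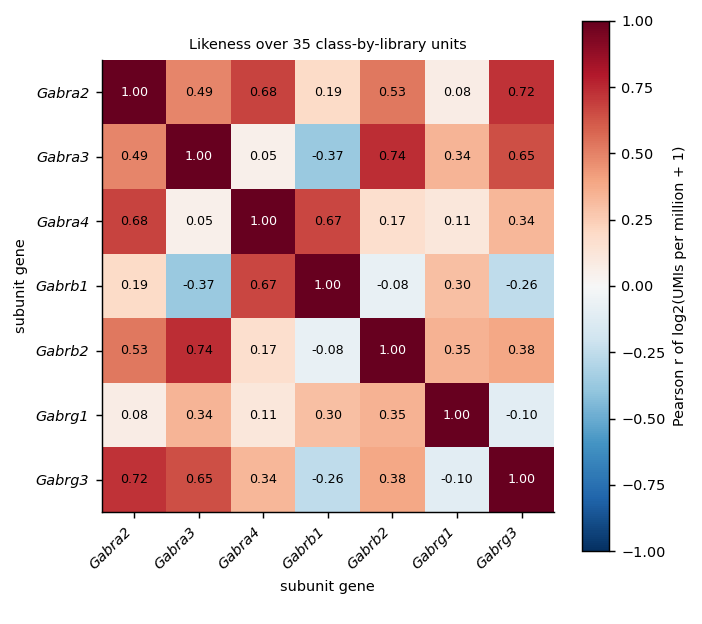
Pearson r between the levels of each pair of subunit genes (both axes), as log2(CPM + 1), over 35 units of class and library with 50 nuclei or more; colour gives r. Gabra3 and Gabrb2 have r = 0.74, Gabra2 and Gabrg3 0.72, and Gabra3 and Gabrb1 -0.37.

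The correlations over these 35 units are a description, since units of 1 library share its depth and free RNA. Gabra3 and Gabrb2, both high in NPC/OPC-like nuclei, had r = 0.74, and Gabra2 and Gabrg3, both highest in neuron-like nuclei, 0.72. On chromosome 5, Gabra2 and Gabra4 had r = 0.68 and the head-to-head Gabra4 and Gabrb1 0.67. The other pairs there were lower, with 0.19 for Gabra2 and Gabrb1. Gabrg1 had 0.08 with its neighbour Gabra2, 0.11 with Gabra4 and 0.30 with Gabrb1. Gabra3 and Gabrg3 had r = 0.65, Gabra3 and Gabrb1 -0.37, and Gabrg1 had no r above 0.35 with another member. Over the 28 units of at least 100 nuclei, r was 0.59 for Gabra2 and Gabrg3 and 0.68 for Gabra3 and Gabrg3.

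Among all genes, those most like Gabrb1 by r were Plcd4 (0.95), Slc4a4 (0.95), a bicarbonate transporter of astrocytes, and Pard3b (0.95). Gabra3 was most like Sgcz (0.92), Sgcd (0.90) and Sorcs3 (0.89), and Gabrb2 most like Pde10a (0.90) and Lin7a (0.87). Gabra2 was most like Negr1 (0.88), Dclk1 (0.87) and the sodium channel subunit Scn3b (0.86), and Gabra4 most like Ntng1 (0.86), Zic1 (0.84) and Atp1b1 (0.83). Gabrg1 was most like the proteoglycan gene Ncan (0.83), Rftn2 (0.81) and Mtcl1 (0.81), and Gabrg3 most like Thsd7b (0.87), 4930545L23Rik (0.85) and Plcb1 (0.85). The highest r was found for Gabrb1, the member with the most UMIs. Over units of at least 100 nuclei, 0 of the 3 genes most like Gabrg1 remained, and 2 of 3 for each other member.

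Other genes of GABA signalling were counted past 1 log2 unit over whole libraries. Among all genes with 100 UMIs or more, 3.99% were lower and 2.89% higher for CBP, and 2.12% and 0.694% for p300. Counts near 0 in short lists are thus no result about these lists. Of the 12 other subunit genes, 2 had 100 UMIs or more, of which 1 was higher by 1 log2 unit or more for CBP, 0 without the astrocyte-like nuclei, and 0 for p300. Of 13 genes for assembly and anchoring, 12 had enough UMIs and 0 passed 1 in either library, with medians of 0.02 and -0.05. Gphn, the gene of the scaffold protein gephyrin, stood at 790.1, 671 and 768 CPM. The lists for GABA synthesis, loading and breakdown (4 of 5 genes with enough UMIs), chloride transport (2 of 2) and the GABA-B receptor (2 of 2) also held 0 genes past 1 in either library, which does not show that they did not differ. Gad1, which makes GABA, was at 20.05, 11.6 and 18.2 CPM, with log2 ratios of -0.79 (-1.08 to -0.50) and -0.14 (-0.36 to 0.08). Neuron-like nuclei gave 20.5%, 75.0% and 25.9% of the Gad1 UMIs. Gad2, of the same list, went the other way, at 12.2, 16.3 and 16.1 CPM. Its log2 ratios were 0.42 (0.13 to 0.71) and 0.40 (0.13 to 0.66).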

How the data were processed

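Single-nucleus libraries were made by the authors with a 10x Genomics 3' kit from 1 pool of cultures per condition. Per the labels, FastQC 0.11.9, Cell Ranger 3.1 and Seurat 2.3.4 were used with GRCm38 (mm10), and the deposited matrices hold raw UMI counts per gene and nucleus, over exons and introns.

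Here, all deposited nuclei were kept and clustered together in Seurat 5.3.0 (R 4.3.3) with a scale factor of 10000, 1617 variable genes (Gabrb1 and Gabrg3 among them), 20 components, 30 neighbours, resolution 0.6 and seed 1. A cluster was named when at least 60% and at least 3 markers of a list were each in 10% of its nuclei and 2-fold above the rest. Most marker lists come from the study, which chose them on these libraries. Doublets were scored with Scrublet (scanpy 1.11.5). The 191, 73 and 173 nuclei of highest score in the control, CBP-ablated and p300-ablated libraries were called doublets, and were kept. These numbers were set by an expected rate of 0.8% per 1000 nuclei. The threshold that Scrublet set by itself called 160, 119 and 88 nuclei.

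UMIs were summed per library and class (Python 3.11.15, scipy 1.17.1). Levels have exact Poisson, log2 ratios exact conditional binomial and shares Clopper-Pearson intervals, all at 95%. A count of 0 allows up to 3 UMIs. Thinning to 1500 UMIs left out 248, 95 and 135 shallower nuclei. A ratio passed at 1 log2 unit, with at least 100 UMIs for whole libraries and 20 within a class. Whole-library ratios and intervals were tested on simulated counts with known folds, drawn from the Poisson model that the intervals assume. Class ratios and UMIs gathered in 1 nucleus were not simulated. Likeness is Pearson r with a pseudocount of 1 CPM, over units of at least 50 nuclei, with 100 as the alternative.

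Named genes are the members, the floxed genes, Xist and Y-linked genes, and the 3 genes most like each member. Genes of the GABA lists were counted and named only past 1 log2 unit. Gphn, Gad1 and Gad2 were named after their values were seen. Some genes this rule covers are not reported here. The members and lists were chosen with earlier results of these data known.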

Additional observations from a re-analysis of the deposited data

Results flagged for a closer look

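Gabrg3 had ratios of opposite sign along the oligodendrocyte lineage of the CBP-ablated library. Its log2 ratio was -1.73 in NPC/OPC-like and -1.68 in committed oligodendrocyte precursor-like nuclei, but 1.82 in oligodendrocyte-like nuclei. The difference between these classes was not tested, since each condition had 1 library. The oligodendrocyte-like value rests on 5 control UMIs and on 1 CBP-ablated nucleus with 30 UMIs, without which it was 0.87 (-0.50 to 2.59). The oligodendrocyte-like levels lay within the range of microglia-like values and limits, from shallower nuclei, and may be background.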

How the results depend on the processing

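No paired analysis was possible because each condition had 1 library. For CBP, the median log2 ratio of the members, -0.89, was -0.53 after thinning to 1500 UMIs and -0.54 at equal class shares, where 1 member was lower by 1 or more in place of 2. For p300, the median of -0.18 was 0.014 outside the astrocyte-like nuclei, -0.14 with TMM scaling (edgeR 4.0.16) and -0.14 after centring on all genes. The count of p300-ablated members lower by 1 was 0 in place of 1 outside the astrocyte-like nuclei and at equal class shares. The share of all genes past 1 was not computed at equal class shares. The shifts outside the astrocyte-like nuclei and at equal class shares follow from leaving out or reweighting nuclei. Scaling and centring move every ratio of a comparison by the same amount. The cause of the shift after thinning was not tested. The 3 whole-library ratios past 1 stayed past 1 without called doublets, in nuclei with at least 1500 UMIs, after thinning, with TMM scaling and after centring. Outside the astrocyte-like nuclei and at equal class shares, 0 of these 3 stayed past 1. At equal class shares Gabrg1 was at -0.49 for CBP, and Gabra4 at -0.29 for CBP and -0.26 for p300. The 1 member lower by 1 or more for CBP was then Gabrg3, at -1.08. Over the alternatives, the CBP-ablated Gabrg3 ratio lay between -1.84 and -1.01 in NPC/OPC-like, between -1.76 and -1.43 in committed oligodendrocyte precursor-like and between 0.87 and 2.71 in oligodendrocyte-like nuclei. The split of the NPC/OPC-like nuclei and leaving out the nucleus with the most UMIs were added after the data were seen, and subtracting 10% of free RNA gave no value for the oligodendrocyte-like ratio. Of 12 ratios past 1 in named classes, 8 stayed past 1 with classes by marker score and 7 without the nucleus with the most UMIs, the only alternative run for unnamed clusters. Leaving the GABA genes out of the variable genes moved 0 of 189 class levels beyond their interval. The depth limits Gabra4 most, with 114 to 309 UMIs per library, and members with fewer than 20 UMIs in a class were not compared.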
